A study of Mus musculus with 15 samples.

Results

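Mouse pancreatic acini exposed to 250 uM or to 62.5 uM TLC-S were compared with each other by small RNA sequencing. The 6 libraries of these treatments, 3 at each dose, were taken by their sample titles from a series of 15 libraries in 5 groups of 3. No control library entered the contrast itself. TLC-S is the name the labels give the agent, and it is known as taurolithocholic acid 3-sulfate, a bile acid that experimenters use to provoke calcium overload and injury in acini. All libraries came from the pancreas of C57BL/6 mice aged 7 to 8 weeks, and the other groups were acini without drug, with caerulein 100 nM and with caerulein 100 pM. The labels give no time of exposure. They state that pools of RNA from 3 independent acinar preparations were sequenced but not which preparations went into which library, so each p-value reflects the spread of these libraries alone, and that spread may be technical. The question was which mature miRNAs differed in level between the higher and the lower dose of the bile acid.

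A miRNA is a short RNA cut from a hairpin precursor, and either arm of the hairpin (5p or 3p) can be loaded into an Argonaute protein. The loaded strand pairs with messenger RNAs mainly through its seed, bases 2 to 8 from the 5′ end, and lowers their translation or stability. Acinar cells make the digestive enzymes of the pancreas and carry high levels of miR-148a, miR-216a, miR-216b and miR-217, while miR-375 is best known from islet cells.

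Sequences of miRNAs named in the comparison are printed 5′ to 3′ from the RefSeq annotation of GRCm38.p6, with the seed in capitals. The first lines are the miRNAs that passed the test, with the other arm of the miR-335 hairpin. miR-30b-5p passed as well.
miR-3968: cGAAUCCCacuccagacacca
miR-203-3p: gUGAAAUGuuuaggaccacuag
miR-335-5p: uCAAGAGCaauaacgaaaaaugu
miR-335-3p: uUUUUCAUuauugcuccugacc
Members of the miR-30 family are shown because their differences between the doses had opposite signs although the seed is the same.
miR-30a-5p: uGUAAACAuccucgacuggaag
miR-30c-5p: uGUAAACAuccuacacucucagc
miR-30e-5p: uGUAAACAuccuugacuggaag
The next lines hold both arms of miR-217 and the 3p arm of miR-216b, for the acinar hairpins.
miR-217-5p: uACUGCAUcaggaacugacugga
miR-217-3p: cAUCAGUUccuaaugcauugccu
miR-216b-3p: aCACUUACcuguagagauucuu
The last lines show seeds picked because miRNAs that share them had negative differences, and none of the miRNAs in these lines passed the test.
miR-322-5p: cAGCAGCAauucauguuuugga
miR-195a-5p: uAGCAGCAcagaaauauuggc
miR-351-5p: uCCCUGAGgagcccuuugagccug
miR-125b-5p: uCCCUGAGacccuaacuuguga
miR-3473b: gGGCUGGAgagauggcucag
miR-3473e: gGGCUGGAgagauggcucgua

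The 6 libraries held 1172899 to 3067507 counts of mature miRNAs. The table lists 1915 mature miRNAs, of which 757 had at least 1 count in a TLC-S library and 1564 were too scarce over the 15 libraries to be tested. As a check of the labelled cell type, the 8 miRNAs listed for acinar cells held 33.9% to 52.4% of the counts of a TLC-S library. The 5 most abundant miRNAs, miR-148a-3p, miR-375-3p, miR-217-5p, miR-200a-3p and miR-200b-3p, held 50.8% to 63.0% of counts at 250 uM and 52.2% to 53.2% at 62.5 uM. Their log2 differences between the doses were 0.38 for miR-148a-3p, -0.03 for miR-375-3p, 0.16 for miR-217-5p, 0.08 for miR-200a-3p and -0.41 for miR-200b-3p, and none passed the test. The SEs were 0.40, 0.22, 0.26, 0.27 and 0.22, respectively.

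In edgeR's quasi-likelihood test with Benjamini-Hochberg adjustment over all miRNAs tested, 4 miRNAs passed an adjusted p of 0.05, which is 1.14% of those tested. miR-3968 and miR-30b-5p rose at 250 uM relative to 62.5 uM (0.570%), and miR-203-3p and miR-335-5p fell (0.570%). The differences of those that fell changed little with the scaling, -0.87 to -1.02 for miR-203-3p and -2.64 to -2.82 for miR-335-5p, but their adjusted p-values crossed the threshold: 2 higher and 0 lower passed with RLE scaling (adjusted p = 0.0501 in edgeR for both that fell), 2 and 0 with upper-quartile scaling, 2 and 0 without the 3 most abundant miRNAs, and 2 and 1 with library totals. At an unadjusted p under 0.05 there were 31 miRNAs (8.83%), 12 higher and 19 lower at 250 uM. The groups did not overlap in 42 miRNAs (12.0%), with the 250 uM libraries above in 21 and below in 21. Over all miRNAs tested the median log2 difference was 0.0089, with 181 positive and 170 negative values.

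**Figure D1:**
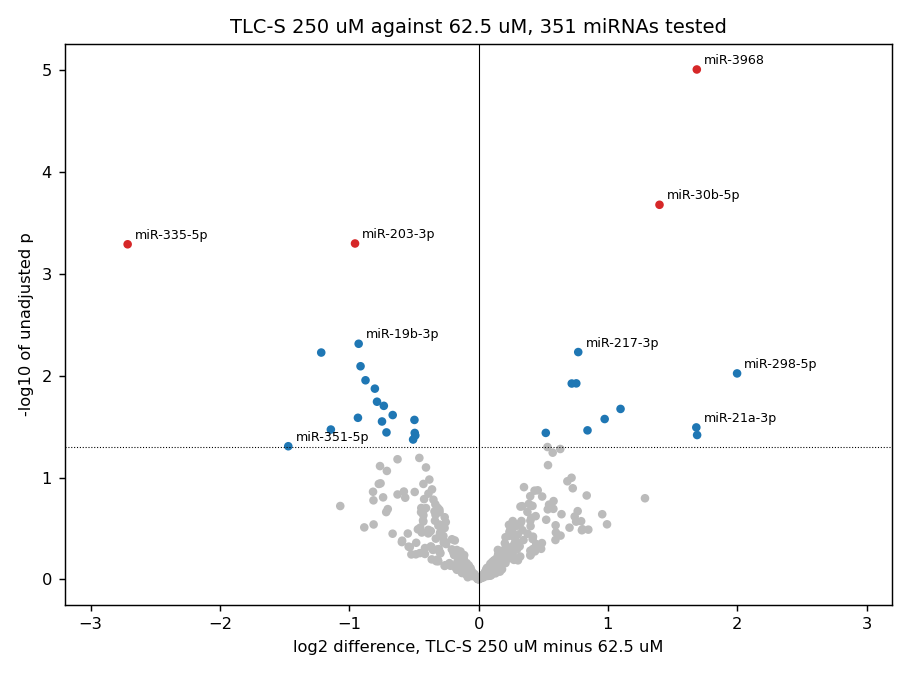
Each point is a tested miRNA, with the log2 difference of TLC-S 250 uM minus 62.5 uM on the x axis and -log10 of the unadjusted edgeR p on the y axis. Red points passed an adjusted p of 0.05, blue points had an unadjusted p under 0.05 (above the dotted line), and the 4 red points stand clear of the 27 blue ones.

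miR-3968 had the smallest p. Its levels, in CPM (counts scaled to a common library size with TMM factors), were 42.5, 35.6 and 31.5 in the 250 uM libraries and 11.6, 11.7 and 10.3 in the 62.5 uM libraries. The lowest library at 250 uM lay well above the highest at 62.5 uM, and the 3 libraries at the lower dose were almost equal. The counts behind these levels were 54, 56 and 87 at 250 uM and 24, 29 and 15 at 62.5 uM. The means were 36.5 ± 5.57 (SD, n = 3) and 11.2 ± 0.743 (SD, n = 3), a log2 difference of 1.69 (SE 0.31, 95% interval 1.06 to 2.32) or 3.22-fold, with an adjusted p of 0.00345 by edgeR. The control libraries stood at 40.7, 41.5 and 33.0 CPM and the 6 caerulein libraries at 55.2 to 92.5, so that the 62.5 uM libraries were below all 12 others and the 250 uM libraries overlapped the controls. The precursor lies on GRCm38 at chr11:115447961-115448060 on the minus strand and overlaps an exon of the protein-coding gene Trim80, which is on the other strand, and the mature sequence at chr11:115447969-115447989. None of the other tested miRNAs with a sequence had its seed, and its 3′ end reads CCA, as in 5 of the 312 with a sequence (1.6%). The call held without any 1 of the 15 libraries, and among 31 alternatives it did not pass in limma with 10 added to each RPM (adjusted p = 0.0835) and without replicate number 1 (0.0964) or 2 (0.176).

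miR-30b-5p belongs to a family that is abundant in epithelial cells. Its levels were 2469, 1736 and 2163 CPM at 250 uM and 596, 1026 and 792 CPM at 62.5 uM. Every library at the higher dose was above every library at the lower dose. The means were 2122 ± 368 and 805 ± 215.3 (SD, n = 3), a log2 difference of 1.40 (SE 0.32, 95% interval 0.73 to 2.06) or 2.64-fold, with an adjusted p of 0.0368 by edgeR. The controls were at 1540, 1332 and 3880 CPM, a spread wider than that of either TLC-S group, and all lay above the 62.5 uM libraries. The precursor is at chr15:68337415-68337510 on the minus strand, in an exon of Gm26621, and the estimated counts of this hairpin were not whole in some libraries (1149.67 in 1 of them). The call was lost in edgeR without 250 uM replicate 1 (adjusted p = 0.167), replicate 2 (0.0502) or replicate 3 (0.131), without 62.5 uM replicate 1 (0.277) or replicate 3 (0.058), and without caerulein 100 nM replicate 1 (0.053) or replicate 2 (0.0629). It was also lost at a mean CPM of at least 10 (0.0612), with only the TLC-S and control libraries (0.085), and without replicate number 1 (0.551) or 2 (0.176).

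miR-203-3p is known from stratified epithelia, where it restrains proliferation of progenitor cells. It was measured at 538.6, 541.8 and 613 CPM at 250 uM and at 1459, 866 and 960 CPM at 62.5 uM. The 250 uM libraries were close together and all below the 62.5 uM libraries, of which replicate 1 was the highest. The means were 565 ± 42.2 and 1095 ± 318 (SD, n = 3), a log2 difference of -0.96 (SE 0.24, 95% interval -1.45 to -0.46), or 1.94-fold higher at 62.5 uM, with an adjusted p of 0.0449 by edgeR. The controls, at 781, 619 and 889 CPM, lay above all 250 uM libraries and overlapped those at 62.5 uM. The hairpin is at chr12:112130880-112130955 on the plus strand, in no other gene. In edgeR the call was lost without any 1 of the 6 TLC-S libraries (adjusted p from 0.0513 without 62.5 uM replicate 2 to 0.587 without 62.5 uM replicate 1), without control replicate 1 (0.0932) or 2 (0.059), and without any 1 of the 6 caerulein libraries (0.071 to 0.0965). It passed under 4 of 31 alternatives.

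miR-335-5p was scarce. Its hairpin lies in the imprinted gene Mest, in an intron, at chr6:30741299-30741396 on the plus strand. It had 6, 3 and 11 counts at 250 uM and 52, 47 and 39 counts at 62.5 uM, or 4.72, 1.91 and 3.98 CPM and 25.1, 18.9 and 26.9 CPM. The 62.5 uM libraries were above all others of the series, where the highest value was 9.23 CPM, and the controls (2.42, 7.48 and 4.30 CPM) overlapped the 250 uM group. The means were 3.54 ± 1.46 and 23.6 ± 4.19 (SD, n = 3), a log2 difference of -2.71 (SE 0.68, 95% interval -4.12 to -1.31), or 6.56-fold higher at 62.5 uM, with an adjusted p of 0.0449 by edgeR. The other arm, miR-335-3p, had a log2 difference of 0.09 (SE 0.88) on 1 to 15 counts per library. Its 95% interval of -1.72 to 1.90 overlaps that of the 5p arm. In edgeR the call was lost without any 1 of the 6 TLC-S libraries (adjusted p from 0.109 without 62.5 uM replicate 3 to 0.33 without 250 uM replicate 3), without any 1 of the caerulein 100 nM libraries (0.071 to 0.0863), without caerulein 100 pM replicate 3 (0.0824), and without control replicate 1 (0.0791) or 2 (0.059). It passed under 12 of 30 alternatives.

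**Figure D2:**
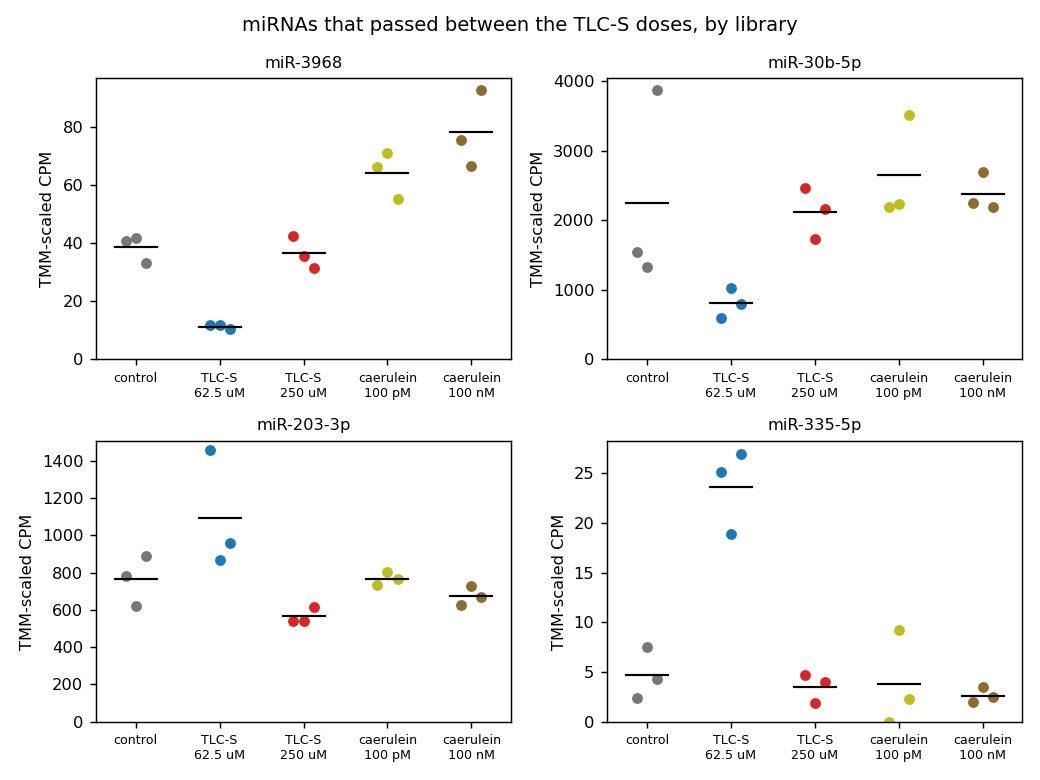
Each panel shows 1 of the 4 miRNAs that passed, with TMM-scaled CPM on the y axis, a point for each library of the 5 groups on the x axis and a line at the mean of 3. The 62.5 uM libraries lie below all 12 others for miR-3968 and miR-30b-5p and above all 12 others for miR-335-5p, and for miR-203-3p they overlap the controls.

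Within the miR-30 family the members differed in sign. Of its 11 tested members 1 rose and none fell (1.14% passed over all miRNAs tested), 7 of 11 differences were positive (51.6% over all), and the median was 0.40 against 0.0089 over all miRNAs tested. miR-30a-5p, the most abundant member, had 25561, 34899 and 27711 CPM at 250 uM and 44174, 39254 and 40913 CPM at 62.5 uM. These groups did not overlap, and the log2 difference was -0.50 (SE 0.21), with an adjusted p of 0.467 by edgeR. miR-30d-5p, from a hairpin less than 10 kb from that of miR-30b on the same strand (chr15:68341208-68341289), also had a negative difference, -0.49 (SE 0.22), with 4634, 3997 and 4102 CPM against 7851, 5668 and 4355 CPM. The 5p arm of miR-30e stood at -0.13 (SE 0.26).

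The summed level of the family was 38730 to 44970 CPM at 250 uM and 50640 to 57470 CPM at 62.5 uM, most of it miR-30a-5p, so the sum was lower at 250 uM while the median difference of its members was positive. miR-30c-5p shares the seed GUAAACA with miR-30a-5p and miR-30e-5p and had 2039, 1201 and 1633 CPM against 1103, 1217 and 1079 CPM. Its log2 difference was 0.52 (SE 0.24) and the groups overlapped by 1 library. In the printed sequences miR-30a-5p and miR-30e-5p share the 3′ end gacuggaag, which miR-30c-5p lacks. Of the 3p arms 5 had positive differences, of 0.72 (SE 0.42) for miR-30e-3p, 0.53 (SE 0.26) for miR-30c-2-3p, 0.40 (SE 0.35) for miR-30a-3p, 0.40 (SE 0.38) for miR-30b-3p and 0.03 (SE 0.67) for miR-30d-3p, while miR-30c-1-3p stood at -0.13 (SE 0.76), and none passed the test. The sign of miR-30d-3p turned with library totals (-0.14).

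All 8 acinar miRNAs had positive differences, with a median of 0.37, but 0 of 8 passed edgeR's test and 2 had an unadjusted p under 0.05. They are both arms of the hairpins of miR-148a, miR-216a, miR-216b and miR-217, so they are not independent measurements. Over all miRNAs tested 51.6% of differences were positive, 1.14% passed and 8.83% had an unadjusted p under 0.05. The signs were the same with RLE and upper-quartile scaling and with library totals. However, miR-216b-5p turned without 250 uM replicate 2 (-0.0075) or 62.5 uM replicate 2 (-0.028), and miR-148a-3p without 250 uM replicate 3 (-0.096). The sign of miR-217-5p turned without replicate number 2 (-0.053). miR-217-3p, the minor arm of its hairpin, had 257, 303 and 281 CPM at 250 uM and 137, 156 and 201 CPM at 62.5 uM. The groups did not overlap, and the log2 difference was 0.77 (SE 0.26), with an adjusted p of 0.297 by edgeR. miR-216b-3p had 1891, 2591 and 2278 CPM against 810, 1268 and 1929 CPM, where the highest library at 62.5 uM exceeded the lowest at 250 uM, and a difference of 0.76 (SE 0.28). For the major arms the differences were 0.16 (SE 0.26) for miR-217-5p, 0.07 (SE 0.23) for miR-216b-5p and 0.35 (SE 0.22) for miR-216a-5p, whose groups did not overlap. miR-216a-3p stood at 0.54 (SE 0.29) and miR-148a-5p at 0.24 (SE 0.26). The hairpins of miR-216a and miR-217 lie together at chr11:28757012-28763835 on the plus strand, and their 4 arms had a median of 0.44.

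miR-148a-3p alone took 27.8%, 21.4% and 42.7% of the counts at 250 uM and 27.2%, 27.8% and 21.8% at 62.5 uM. The value of 42.7% came from 250 uM replicate 3, and without that library the log2 difference of miR-148a-3p was -0.10 instead of 0.38. In these bulk libraries fewer cells of a type and less RNA per cell cannot be told apart.

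**Figure D3:**
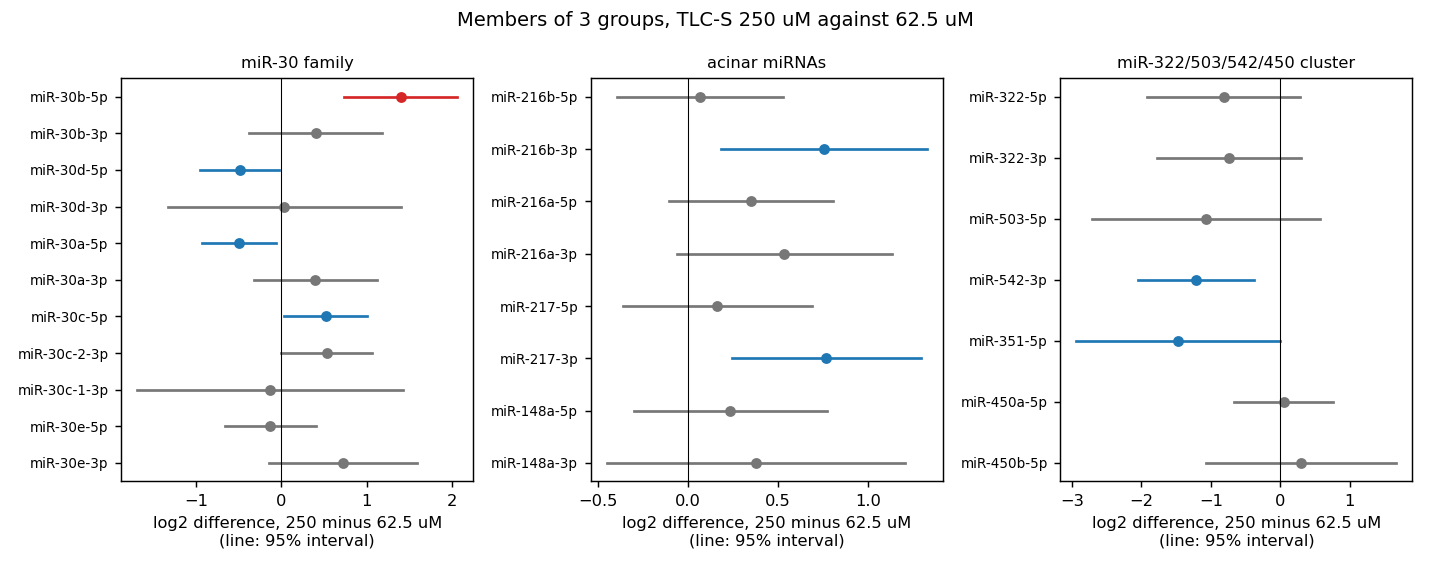
Points are log2 differences of TLC-S 250 uM minus 62.5 uM (x axis) for the tested members of the miR-30 family, the acinar list and the X-linked miR-322 cluster, with 95% intervals as lines. Red passed an adjusted p of 0.05 (miR-30b-5p), blue had an unadjusted p under 0.05, and all 8 acinar points lie above 0.

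The ratio of the arms of a hairpin was compared for 8 hairpins as log2 of 3p over 5p counts. They were the hairpins of miRNAs that passed, of the acinar list and of miR-21a, and ratios of other hairpins were not computed. For miR-30b, miR-335 and miR-203 the ratio contains the counts of the arm that passed in these same libraries. It is therefore no separate support for those calls. For miR-217 it was -8.17 ± 0.129 at 250 uM and -8.78 ± 0.162 at 62.5 uM (SD, n = 3), a difference of 0.62, and the groups did not overlap. For miR-30b it was -6.64 ± 0.265 and -5.60 ± 0.458 (SD, n = 3), a difference of -1.04, again without overlap. For miR-335 it was -0.20 ± 0.897 and -2.78 ± 1.04 (SD, n = 3), a difference of 2.59, also without overlap. Each of these 3 had a two-sided exact permutation p of 0.1, which is the smallest that 3 against 3 libraries allow, and 0.267 after Benjamini-Hochberg adjustment over the 8 hairpins. In the controls the ratio was -8.25, -8.36 and -8.25 for miR-217 and -5.40, -5.74 and -6.91 for miR-30b. For miR-335 it was -0.29, -2.55 and 0.40 in the controls. The controls thus overlapped both TLC-S groups for miR-30b and miR-335. The other differences were 1.81 for miR-21a, 0.75 for miR-216b, 0.20 for miR-216a, 0.05 for miR-148a and -1.47 for miR-203, whose 5p arm had 0 to 3 counts per library, with exact permutation p-values of 0.2 to 0.8.

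The X-linked cluster of miR-322, miR-503, miR-542, miR-450 and miR-351, known from muscle differentiation and growth control, had mostly negative differences. Of 13 arms listed 7 were tested, 5 of the 7 were negative (6 with library totals), the median was -0.82 and none passed the test. miR-542-3p had 14.2, 10.8 and 13.0 CPM at 250 uM and 34.8, 19.7 and 34.5 CPM at 62.5 uM. The groups did not overlap, and the log2 difference was -1.22 (SE 0.40), with an adjusted p of 0.297 by edgeR. miR-351-5p had 0, 7 and 9 counts at 250 uM and 15, 19 and 12 counts at 62.5 uM, too few for a firm value, and a difference of -1.47 (SE 0.71). miR-322-5p had -0.82 (SE 0.53) and miR-322-3p -0.74 (SE 0.51), and 62.5 uM replicate 1 was the highest library for both. The cluster spans chrX:53047997-53054349 on the minus strand.

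Of 40 seeds shared by at least 2 tested miRNAs, 17 had differences of 1 sign only, among them 15 of the 28 seeds with 2 miRNAs. miR-322-5p carries the seed AGCAGCA of the family of miR-15, miR-16 and miR-195, regulators of cell cycle and survival genes, and 5 of the 6 tested miRNAs with this seed had negative differences, with a median of -0.48. In that family's list, 3p arms included, 7 of 9 were negative, with a median of -0.33. miR-195a-5p had 85.8, 43.9 and 45.2 CPM at 250 uM and 141.95, 95.7 and 79.9 CPM at 62.5 uM, which overlap by 1 library, and a difference of -0.87 (SE 0.32). All 3 miRNAs with the seed CCCUGAG were negative, miR-125a-5p, miR-125b-5p (-0.71, SE 0.40) and miR-351-5p, with a median of -0.71, but without 62.5 uM replicate 1 the value of miR-125b-5p was -0.048. In the wider families of miR-10, miR-99, miR-100 and miR-125, 11 of 12 were negative (9 without the 3 most abundant miRNAs, 12 with library totals), with a median of -0.23. None of these passed the test, and members with 1 seed are not independent measurements where reads fit several of them.

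miR-19b-3p, of the miR-17-92 cluster that promotes growth in many tissues, had 574, 675 and 362 CPM at 250 uM and 1560, 883 and 618 CPM at 62.5 uM. The groups overlapped by 1 library and the log2 difference was -0.93 (SE 0.30), with an adjusted p of 0.297 by edgeR. Of the 7 tested members of that cluster's list 6 were negative, with a median of -0.22. miR-3473b and miR-3473e, which share the seed GGCUGGA, had 45.7, 56.0 and 49.6 against 78.7, 71.5 and 102 CPM, and 36.2, 48.3 and 28.2 against 57.5, 65.1 and 92.3 CPM. Neither pair of groups overlapped, and the differences were -0.73 (SE 0.29) and -0.93 (SE 0.39). Reads that fit both could have been divided between them.

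Other single miRNAs with an unadjusted p under 0.05 had adjusted p-values of 0.297 to 0.55 by edgeR. Lower at 250 uM in value were miR-185-5p (log2 difference -0.91, SE 0.32), miR-218-5p (-0.80, SE 0.30), miR-184-3p (-0.79, SE 0.31), miR-106b-3p (-0.75, SE 0.32), miR-3535 (-0.66, SE 0.28) and miR-708-5p (-1.14, SE 0.51). miR-146a-5p, which is induced by inflammatory signalling in many cells, stood at -0.71 (SE 0.32), with 846, 1375 and 1064 CPM against 1062, 1427 and 2895 CPM. Without the highest of these libraries, 62.5 uM replicate 3, its difference was -0.12. Higher in value were miR-802-5p (0.72, SE 0.27), miR-1249-3p (1.10, SE 0.45), miR-190a-5p (0.97, SE 0.41), miR-669c-5p (0.84, SE 0.38) and miR-129-5p (1.69, SE 0.77). The value of miR-129-5p rested on 74 counts in all the TLC-S libraries together, with means of 9.10 CPM at 250 uM and 2.71 CPM at 62.5 uM. miR-298-5p had the highest positive value, 2.0 (SE 0.71), on 5, 12 and 23 counts at 250 uM and 1, 6 and 3 counts at 62.5 uM.

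The series title names miR-21-3p. miR-21a-3p had 6, 17 and 33 counts at 250 uM and 1, 9 and 7 counts at 62.5 uM, or 4.72, 10.8 and 11.9 CPM against 0.483, 3.62 and 4.82 CPM. The groups overlapped slightly, and the log2 difference was 1.68 (SE 0.74), with an unadjusted p of 0.0322 and an adjusted p of 0.467 by edgeR. The controls had 1.45, 2.62 and 5.26 CPM. miR-21a-5p, the abundant arm, had 14117, 15999.5 and 19556 CPM against 22474, 16238 and 10687 CPM, and a difference of 0.01 (SE 0.26, 95% interval -0.53 to 0.55), whose sign turned with library totals (-0.06).

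Of the other lists, 0 of 8 tested inflammation-induced miRNAs passed (3 positive and 5 negative, median -0.11), and 0 of 7 of the p53, stress and hypoxia list (7 positive, 4 with library totals, median 0.11). The let-7 family had 7 positive and 3 negative differences (4 and 6 with library totals) and a median of 0.05, and the miR-200 family 3 and 6 and a median of -0.16. In the islet list 5 of 10 were positive, with a median of 0.12. The miR-29 family had a median of 0.08 over 6 tested members, the miR-26 family 0.25 over 4, the miR-148 and miR-152 family 0.18 over 6, the calcium and CREB list 0.16 over 3, and the muscle and liver list 0.18 over 4. The miR-183, miR-96 and miR-182 cluster had a median of 0.15 over 3 members, the miR-106b-25 cluster -0.09 over 5, the miR-23, miR-27 and miR-24 clusters -0.11 over 9, the miR-221 and miR-222 cluster -0.17 over 3, and the list for the imprinted Dlk1-Dio3 locus -0.15 over 24. No member of these 10 lists passed the test. The Dlk1-Dio3 list includes miR-342-3p, which lies outside the locus at chr12:108658680-108658702. It leaves out miR-329-5p and miR-376b-5p, which were tested and lie in the locus. Of the list of miR-203 and miR-205, miR-203-3p passed as given above and the median of its 2 tested members was -0.70.

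Of 1012 miRNAs numbered 1900 or above, many of them known from few reads, 28 were tested with a median of 0.02. Only miR-3968 passed, where 1.14% passed over all miRNAs tested. At an unadjusted p under 0.05 in edgeR, 1 of the 28 was higher and 3 were lower at 250 uM (8.83% over all, either direction).

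Markers of other cells that acini can carry had summed levels that overlapped between the doses. The leukocyte list summed to 87.1 to 139 CPM at 250 uM and 71.9 to 105 CPM at 62.5 uM, with 5 of 9 miRNAs tested. The erythrocyte list summed to 136.2 to 178 and 149 to 193 CPM (4 of 7 tested), and the endothelial list to 4454 to 7896 and 4182 to 6674 CPM (2 of 4 tested, the arms of miR-126b being at 0). The mesenchymal and stellate list summed to 8431 to 18040 and 11670 to 15350 CPM, and the islet list to 90310 to 119700 and 84210 to 130100 CPM. Most of the islet sum was miR-375-3p, with means of 92943 CPM at 250 uM and 94971 CPM at 62.5 uM. The islet sum therefore does not describe the scarcer members of that list. In the other lists miR-150-3p, miR-486b-3p and miR-375-5p had no count in a TLC-S library. None of the tested members of these lists passed, and the part of these cells in the 4 calls was not tested.

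**Figure D4:**
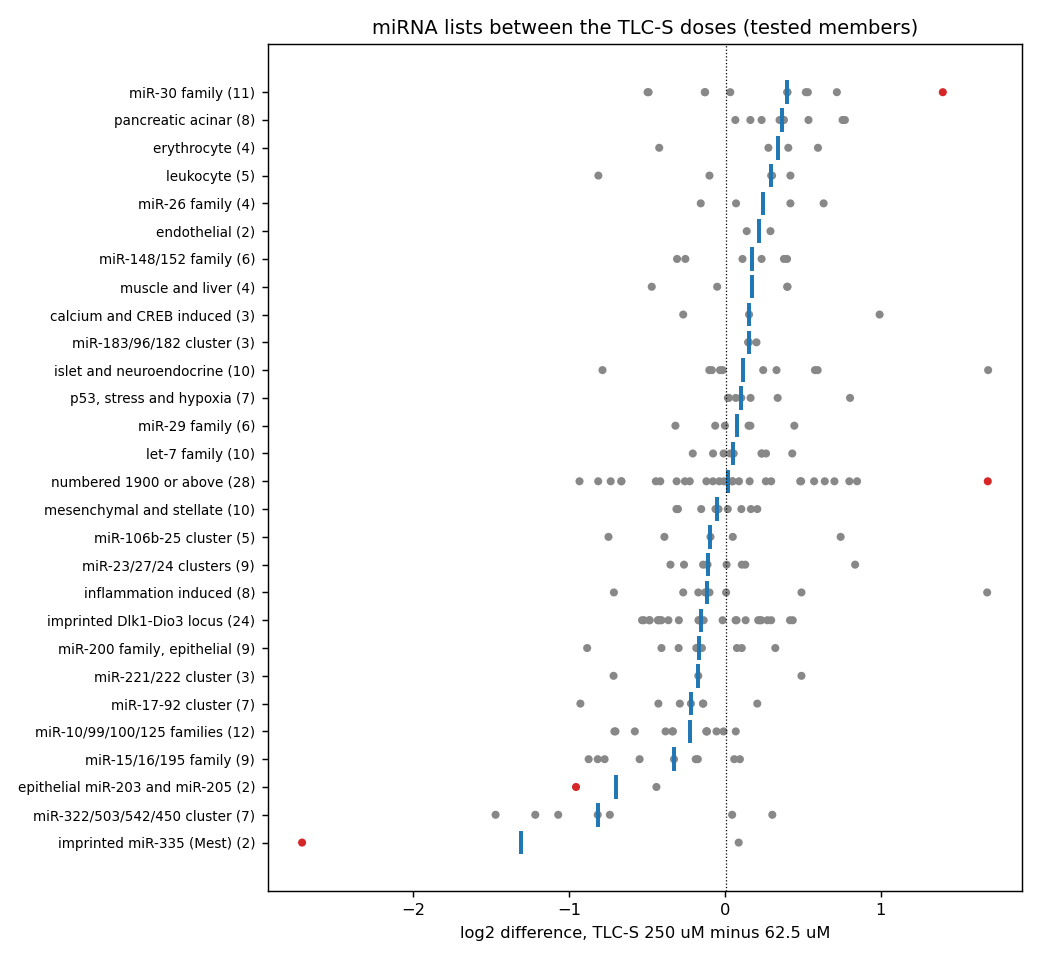
Each row is a list of miRNAs with the number tested in brackets, each point a member's log2 difference of TLC-S 250 uM minus 62.5 uM (x axis), and the blue bar the list's median. Red points passed an adjusted p of 0.05, and most lists spread to both sides of 0, while the acinar list, the p53, stress and hypoxia list, the miR-183 cluster and the endothelial list lie wholly above it.

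The difference between the TLC-S doses was set against that between the caerulein doses, which come from other libraries, as an interaction in the same fit. This test was chosen after the data had been seen. The caerulein doses, 100 pM and 100 nM, lie much further apart in ratio than the TLC-S doses of 62.5 uM and 250 uM. No miRNA passed (0 calls, 0.00%), and 18 had an unadjusted p under 0.05. Caerulein 100 nM minus 100 pM was 0.30 (SE 0.28) for miR-3968, -0.15 (SE 0.32) for miR-30b-5p, -0.19 (SE 0.24) for miR-203-3p and -0.69 (SE 0.81) for miR-335-5p. The TLC-S difference exceeded it by 1.39 (SE 0.41) for miR-3968 and by 1.55 (SE 0.45) for miR-30b-5p, each with an adjusted p of 0.414 by edgeR, so a difference between the agents in their dose effect did not pass for any of the 4. Over the miRNAs tested Pearson's r of both dose differences was 0.115, given without a test as a description of values from 1 fit.

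**Figure D5:**
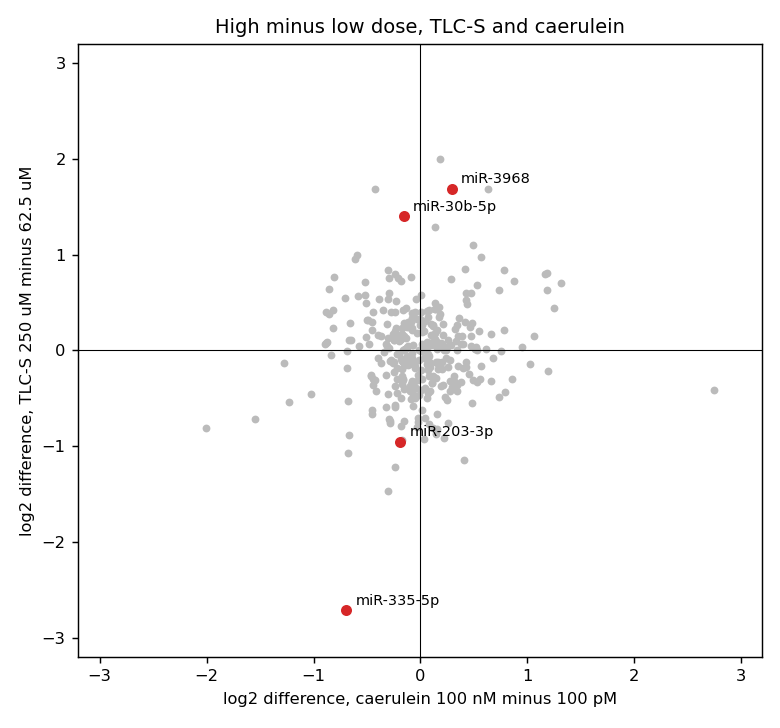
Each point is a tested miRNA, with the log2 difference of caerulein 100 nM minus 100 pM on the x axis and of TLC-S 250 uM minus 62.5 uM on the y axis. The 4 miRNAs that passed between the TLC-S doses (red) lie from -0.69 to 0.30 on the caerulein axis, and the cloud has no clear slope (r = 0.115).

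The precision limited what could be seen. Of the 95% intervals of a log2 difference, the median half-width was 0.73, and the median SD of log2 CPM within a group was 0.37 at 250 uM and 0.40 at 62.5 uM, while the median absolute difference was 0.29. Only 12 miRNAs had a log2 difference beyond 1 in size.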

How the data were processed

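Per the labels' protocols, small RNA of pancreatic acini was extracted with mirVana and sequenced on an Illumina instrument. The submitters' processing notes name cutadapt, Bowtie, GRCm38 and mm10. Which program counted the reads, and every version, is not given in the sources used here. Estimated counts (expected counts) of mature miRNAs were deposited by the authors, already whole, each within 0.5 of the sum of a deposited table per precursor, of whose values above 0 74.0% were whole within 1e-06. Their deposited RPM matched the counts per precursor scaled to 1 total within 0.0313, and served only in the limma alternatives. There, a mature miRNA with several precursors was represented only by the precursor with the highest mean RPM.

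Groups came from sample titles. All 15 libraries entered 1 edgeR 4.0.16 fit of 5 group means in R 4.3.3 (TMM, filterByExpr with minimum count 10 and total 15, quasi-likelihood F test, 10 residual degrees of freedom), with Benjamini-Hochberg adjustment over 351 miRNAs and a threshold of 0.05. The SE was derived from F, and the biological coefficient of variation was 0.285. Series totals were 535473 to 5087728 counts. Arm ratios used counts plus 0.5. Replicate libraries of each TLC-S group differed by far more than sampling noise. Precursors were placed by name on GRCm38 with GENCODE M21 (338 of 351 tested miRNAs), and 312 of 351 had a RefSeq sequence used here. Figures were drawn with matplotlib 3.10.9.

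The comparison, the 28 lists and the miRNAs named were chosen with earlier results of these data known. The rule named every miRNA past the threshold, up to 12 more per direction with the smallest unadjusted p under 0.05, the 5 most abundant, other arms, cluster and seed partners of those that passed, up to 4 abundant members of a list and both arms of miR-21a. Outside it, miR-351-5p, miR-125b-5p, miR-125a-5p and the other minor acinar and miR-30 arms were named after their values were seen. Alternatives were other scalings and filters, DESeq2 1.42.0, robust dispersion, limma 3.58.1 (log2 RPM after adding 1 or 10), a replicate block, fewer groups, and omission of single libraries or of a replicate number.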

Additional observations from a re-analysis of the deposited data

How the results depend on the processing

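The count of 4 miRNAs past the threshold (2 higher, 2 lower) stayed at 4, the same miRNAs, with DESeq2, robust dispersion and the replicate block. It was 3 (2 higher, 1 lower) with library totals, without a low-count filter, with limma at a pseudocount of 1 and with the 6 TLC-S libraries alone; 2 (2 and 0) with RLE, upper-quartile scaling or the 3 most abundant miRNAs removed; 2 (1 and 1) with limma at a pseudocount of 10 or with TLC-S and control libraries; and 1 (1 and 0) at a mean CPM of at least 10, where miR-335-5p was not tested. Leaving out libraries or a replicate number gave 0 to 4 calls (0 to 2 higher, 0 to 2 lower). In edgeR 0 miRNAs passed without replicate number 1 or 2, with 19 and 27 at an unadjusted p under 0.05. Without replicate number 3, miR-3968 and miR-30b-5p passed, with 36 at an unadjusted p under 0.05. Each of these omissions removes 5 libraries and leaves 2 a group. The cause of the losses was not tested.

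The sample titles carry library codes and no replicate number, and the numbers used here follow those codes. Each replicate number covers all groups of the series. Same-numbered TLC-S libraries had correlated deviations of 0.263, 0.11 and 0.0625. Among libraries with different numbers, 250 uM replicate 2 and 62.5 uM replicate 3 stood at 0.151, and the others at -0.234 to -0.00112. The labels do not say whether same-numbered libraries share preparations, so pairs were not assumed in the main fit.

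Of the recomputed log2 differences of named miRNAs 41 changed sign. For miR-30d-3p the value was -0.14 with library totals, -0.029 with DESeq2, -0.024 with the TLC-S libraries alone and -0.0018 with controls added. For miR-335-3p it was -0.021 with library totals, -0.12 and -0.0069 with limma at a pseudocount of 1 and 10, and -0.27 with the replicate block. For miR-21a-5p it was -0.062 with library totals, -0.016 with limma at either pseudocount, -0.032 with the replicate block and -0.041 with TLC-S and control libraries. Leaving out libraries gave ranges of -0.55 to 1.68 for miR-30d-3p, -0.40 to 0.44 for miR-30c-1-3p, -0.25 to 0.017 for miR-30e-5p, -0.59 to 0.63 for miR-335-3p, -0.14 to 0.69 for miR-148a-3p, -0.15 to 0.33 for miR-216b-5p, -0.053 to 0.38 for miR-217-5p, -0.18 to 0.33 for miR-375-3p, -0.024 to 0.18 for miR-200a-3p and -0.29 to 0.47 for miR-21a-5p. The arm ratio ranged from -0.11 to 0.43 for miR-216a and from -0.34 to 0.47 for miR-148a. Depth limits miR-335, miR-351-5p, miR-298-5p, miR-129-5p and miR-21a-3p, which had fewer than 10 counts in some libraries.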
